A study of Mus musculus with 4 samples.

Results

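H3K27me3 peaks that covered a gene start, were no wider than 5 kb and were found from both 15000 and 500 erythro-myeloid progenitors (EMPs) numbered 818, which was 5.35% of the 15282 peaks of the 15000-cell list. The peaks were chosen by 4 values: a position on chromosomes 1 to 19, a width of at most 5000 bp, the authors' location category overlapStart (the peak crosses the start of the gene paired with it), and an overlap of at least 1 bp with a peak of the 500-cell list. They are called shared start peaks below. The comparison sets came from the same list: the 596 start peaks of the same width limit that no 500-cell peak touched (unshared), and the 384 start peaks over 5 kb (wide). Width, location and overlap served to choose the sets, so the differences in them describe the choice and were not tested.

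The cells were EMPs of the mouse yolk sac at embryonic day 10.5, sorted as KIT+, CD41+ and CD16/32+ cells, from strain C57BL/6. The genotype label of every library reads Ezh2fl/fl; Tie2-Cre+/+ followed by the words wild type, and the study treats the cells as wild type. Tie2-Cre is a recombinase driven by an endothelial promoter, so it acts in endothelium and in the blood cells that descend from it. H3K27me3 and IgG libraries were made by CUT&RUN, in which an antibody guides a nuclease that cuts out the DNA around its target, from 500 and from 15000 EMPs, with 1 library in each of the 4 groups. The 500-cell libraries had 17 PCR cycles and reads of 76 bp, the 15000-cell libraries 16 cycles and 59 bp, and the instruments differed. The authors called peaks at a p-value threshold of 0.01 for 500 cells and 0.05 for 15000 cells, so cell number, sequencing and stringency cannot be told apart. Depth and alignment rate were also lower for 500 cells by the reporting summary of the study, and the part of either in the results was not tested. The files list peak positions with no read count or score, hence the depth was unknown from the files, no test between libraries was possible, and every interval below covers counting error only. In such bulk libraries, the mark on fewer cells and less of the mark per cell cannot be told apart.

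H3K27me3 is placed on histone H3 by Polycomb repressive complex 2 (PRC2), whose catalytic subunit is Ezh2 or its homolog Ezh1. The mark is a hallmark of repressed developmental genes, and in mammals PRC2 is found mostly at CpG islands, the CpG-rich stretches at many gene starts. Long domains of the mark are typical of loci of developmental transcription factors such as the Hox clusters, whereas shorter ones lie at single gene starts. EMPs arise from endothelium, so endothelial genes are turned down and blood genes turned up as these cells form.

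The shared start peaks are illustrated by 7 windows of 240 bp from the reference genome GRCm38 (mm10), chosen to show starts of high and low CpG content and how the 500-cell peaks lay to them. Each is printed 5′ to 3′ on the gene's own strand, with CpG dinucleotides in capitals. Upstream windows end at the base before the annotated start, and the other window of Klf14 is centered on its widest 500-cell peak.
Shisa3 upstream of the start: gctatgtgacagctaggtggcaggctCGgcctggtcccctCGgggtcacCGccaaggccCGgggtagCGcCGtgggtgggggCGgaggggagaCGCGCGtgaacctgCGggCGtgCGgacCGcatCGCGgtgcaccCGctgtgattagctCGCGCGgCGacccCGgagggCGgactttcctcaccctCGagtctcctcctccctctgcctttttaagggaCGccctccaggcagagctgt
Sulf2 upstream of the start: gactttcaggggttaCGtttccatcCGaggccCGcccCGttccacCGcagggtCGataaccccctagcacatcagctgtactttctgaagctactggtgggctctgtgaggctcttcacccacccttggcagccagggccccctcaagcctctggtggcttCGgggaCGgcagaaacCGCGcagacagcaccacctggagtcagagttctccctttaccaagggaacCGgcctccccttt
Klf14 upstream of the start: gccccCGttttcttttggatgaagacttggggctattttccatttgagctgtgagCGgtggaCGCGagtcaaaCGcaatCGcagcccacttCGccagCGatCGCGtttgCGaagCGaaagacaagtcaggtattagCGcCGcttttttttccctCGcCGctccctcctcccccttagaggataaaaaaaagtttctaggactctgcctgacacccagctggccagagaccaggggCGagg
Klf14 500-cell peak: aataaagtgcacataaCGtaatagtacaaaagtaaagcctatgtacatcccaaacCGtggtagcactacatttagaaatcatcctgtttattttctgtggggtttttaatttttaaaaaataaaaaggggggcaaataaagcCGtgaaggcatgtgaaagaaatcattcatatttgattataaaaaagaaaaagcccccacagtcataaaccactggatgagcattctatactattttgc
Erg upstream of the start: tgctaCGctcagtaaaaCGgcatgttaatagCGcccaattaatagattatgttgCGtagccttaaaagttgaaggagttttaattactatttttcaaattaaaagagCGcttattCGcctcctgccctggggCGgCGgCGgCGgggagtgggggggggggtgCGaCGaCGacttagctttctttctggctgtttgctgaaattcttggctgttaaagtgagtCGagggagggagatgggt
Unc5b upstream of the start: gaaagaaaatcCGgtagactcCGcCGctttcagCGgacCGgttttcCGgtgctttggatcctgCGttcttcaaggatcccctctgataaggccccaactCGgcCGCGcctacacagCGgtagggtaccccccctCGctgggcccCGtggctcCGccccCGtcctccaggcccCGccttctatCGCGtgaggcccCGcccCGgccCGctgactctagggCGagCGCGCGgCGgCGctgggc
Lrg1 upstream of the start: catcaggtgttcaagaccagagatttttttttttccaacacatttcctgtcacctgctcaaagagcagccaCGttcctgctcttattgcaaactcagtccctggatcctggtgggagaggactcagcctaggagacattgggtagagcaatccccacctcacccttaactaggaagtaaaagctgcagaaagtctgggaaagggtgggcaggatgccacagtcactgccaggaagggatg

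Shisa3, which encodes a membrane protein that dampens Wnt and FGF receptor signaling, had 25 CpG dinucleotides in the window at its start (chr5:67607642-67607881, plus strand), where no base lay in a 500-cell peak. Of this window, 185 bases overlap an exon of 1700025A08Rik on the opposite strand, while the other 6 windows overlap no annotated exon. Sulf2 encodes an extracellular sulfatase that trims heparan sulfate. Its start window (chr2:166155664-166155903, minus strand) held 11 CpG and likewise no base of a 500-cell peak. Klf14, a zinc finger transcription factor gene with the highest CpG observed over expected ratio at the start of all members with a value, showed 17 CpG at the start (chr6:30959079-30959318, minus strand) and 3 in the 500-cell window (chr6:30959723-30959962). Erg and Unc5b ran the other way. At Erg, the gene of an endothelial transcription factor, 137 of the 240 upstream bases (chr16:95586594-95586833, minus strand) lay in the 500-cell peak, and the window held 14 CpG. At Unc5b, which encodes a netrin receptor of endothelium and neurons, 182 bases (chr10:60831582-60831821, minus strand) did, and the window held 27 CpG. Lrg1, the gene of a secreted leucine-rich glycoprotein, had the lowest such ratio, with 1 CpG in the window (chr17:56122002-56122241, minus strand). No base of this window lay in a 500-cell peak. The Lrg1 member began at -174 bp from the start, so part of the window lay outside it.

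**Figure D1:**
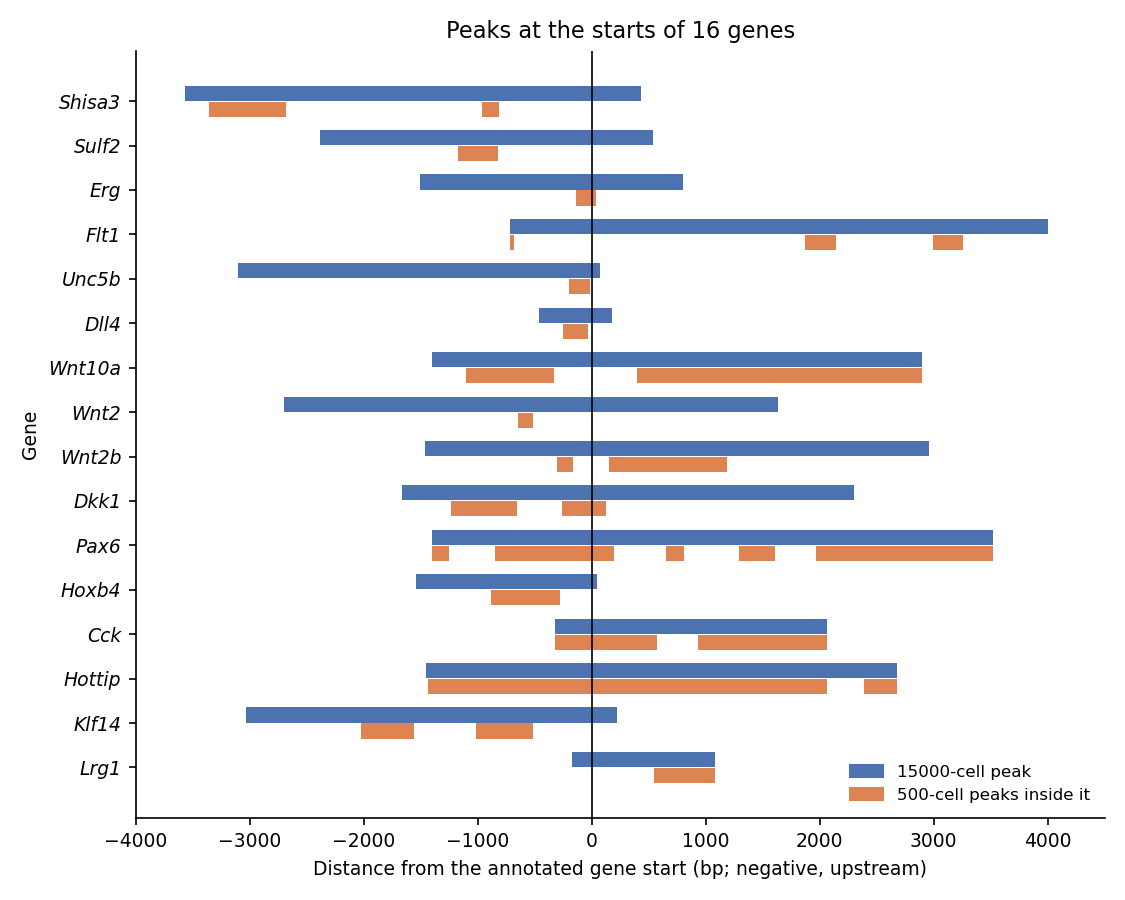
Position of the 15000-cell peak (blue) and of the 500-cell peaks inside it (orange) at 16 gene starts, against the distance in bp from the annotated start on the gene's own strand (black line, 0). At Shisa3, Sulf2, Klf14, Flt1 and Wnt2 the orange bars lay away from the start, and at Erg, Dkk1, Pax6, Cck and Hottip an orange bar crossed it.

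Shared start peaks had a median width of 3147 bp (interquartile range 2315 to 3934 bp, range 347 to 4997 bp). Together they spanned 2521 kb, or 10.5% of all bases in 15000-cell peaks. The narrowest lay at Elavl2, a neuronal RNA-binding protein gene (347 bp), at Gm13285 (371 bp) and at Mpped1 (427 bp). Just inside the width limit stood Cdh6 (4997 bp), Pllp (4992 bp) and Bhlhe22 (4986 bp), and just outside it Bean1 (5001 bp), Gjd2 (5005 bp) and Ndrg4 (5013 bp). The 500-cell peaks inside these last 3 covered 26.8%, 14.6% and 11.5% of them, and those inside the 3 just under the limit covered 13.8%, 13.8% and 62.5%, so the values on either side of the limit were interleaved. Another 15000-cell peak lay within 3 kb of 73.5% of the members (601 of 818), at a median gap of 384 bp over all members. When 15000-cell peaks within 1 kb of each other were joined, 58.6% of the members (479 of 818) still belonged to a region of at most 5 kb.

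The paired gene was protein-coding in 768 of the 818 members (93.9%, 95% Wilson interval 92 to 95.3%), a long intergenic RNA in 17, an antisense RNA in 16 and a microRNA in 3. The annotated start of the gene in GENCODE lay inside the peak in 797 (97.4%), and these 797 carry the results on position. In all 34 members were paired with more than 1 gene across its start. Of the bases, 43.2% were intronic, 22% exonic and 34.8% outside genes. The downstream edge of the peak lay in an intron in 543 of 797 (68.1%) and in an exon in 254. A median of 55% of the length (95% interval of the median 52.7 to 57.6%) lay downstream of the start, close to the 56.1% of unshared and the 55.5% of wide start peaks, whose intervals overlapped it. The genes were long, with a median of 28.9 kb (24.4 to 34 kb) in members against 17.6 kb over all protein-coding genes. The unshared set had 31.5 kb (26.8 to 38.1 kb), an interval that overlapped that of the members.

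The part of a member inside 500-cell peaks varied widely. A median of 21.1% of the length was covered (interquartile range 11.3 to 33.8%, range 0.464 to 98.4%), which was 574 bp, and over all members 24.2% of the bases. Of the members, 434 held 1 such peak (53.1%), 263 held 2, 102 held 3 and 19 held 4 or more. The most, 6, lay at Nol3, which encodes an apoptosis repressor. The eye and forebrain regulator Pax6, the retinoic acid binding protein gene Crabp1 and Prrt4 held 5 each, and Nags, which encodes an enzyme upstream of the urea cycle, held 4. A piece of a 500-cell peak inside a member had a median length of 338 bp. Coverage was highest at Jph4, a junctophilin gene of neurons (98.4%), at Hottip, the long non-coding RNA beside the distal Hoxa genes (91.6%), at the neuropeptide gene Cck (84.7%), at Gm13285 (83.6%) and at Evx1os, antisense to the homeobox gene Evx1 (83.4%). It was smallest at the chemokine receptor gene Ccr10, where 10 bp overlapped, at the T-box gene Tbx3 (13 bp) and at Pappa (19 bp). With a required coverage of at least 10%, 638 members were left.

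The gene start lay inside a 500-cell peak in 142 of 797 members (17.8%, 95% interval 15.3 to 20.6%), beside 24.2% of all member bases. In 242 members (30.4%) the 500-cell peaks lay only downstream of the start, in 241 (30.2%) only upstream, and in 172 (21.6%) on both sides without crossing it. Where the start was not covered, the nearest 500-cell peak stood at a median of 436 bp (interquartile range 204 to 742 bp). In bins of 100 bp, coverage by 500-cell peaks was highest at -450 bp from the start (27.5% of starts), lowest within 500 bp of the start at 250 bp (14.4%), and 26.7% at 1050 bp. The 15000-cell peaks were present at 98.6% of the same starts at -50 bp and at 85.1% at 450 bp. Wide start peaks had the same dip in the 500-cell list: 29.6% at the start, 44.4% at -650 bp, 27.9% at 150 bp and 48.6% at 1350 bp. The 15000-cell peaks covered at least 96.9% of the wide starts in every bin within 500 bp. When any annotated transcript start of the gene was taken, 184 members (23.1%) had one inside a 500-cell peak.

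**Figure D2:**
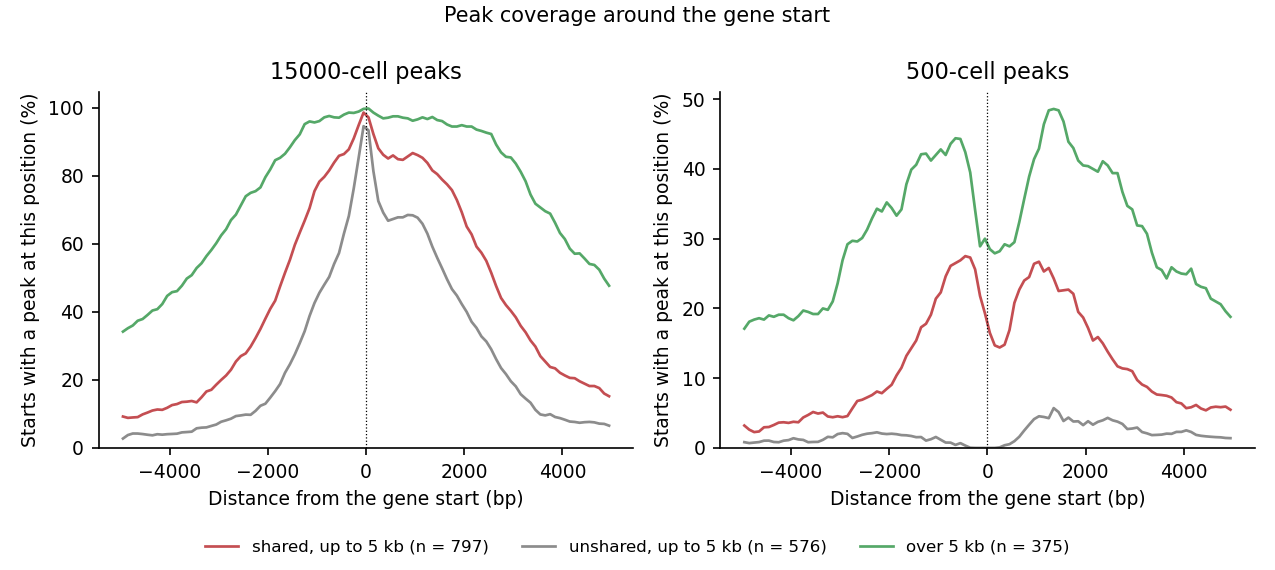
Share of gene starts (y axis, %) with a 15000-cell peak (left) or a 500-cell peak (right) in each 100-bp bin at a given distance from the start in bp, for shared start peaks up to 5 kb (red, 797 starts), unshared start peaks up to 5 kb (gray, 576) and start peaks over 5 kb (green, 375). The 15000-cell peaks were most frequent at the start, where the sets were chosen to have one, while the 500-cell peaks of the red and green sets were more frequent on either side of it than at it.

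CpG content differed between the covered and the uncovered part of a member. In the 807 members with at least 100 bp inside and 100 bp outside 500-cell peaks, the 500-cell peaks held a median of 2.01 CpG per 100 bp (95% interval 1.89 to 2.12) and the rest of the member 3.11 (2.99 to 3.22). The density was higher inside the 500-cell peaks in 230 of the 807 (28.5%). GC content went the same way, with medians of 50.6% inside and 53.3% outside. Split into bins of 100 bp, members had 24.8% of the bases in 500-cell peaks where a bin held no CpG, 27% at 1 to 2 CpG, 27% at 3 to 5, 19.6% at 6 to 9 and 8.76% at 10 or more. The lower share at high CpG was present at both distances. Within 500 bp of the start the share was 27.3% with no CpG, 29.6% at 1 to 2, 25.3% at 3 to 5, 16.1% at 6 to 9 and 6.63% at 10 or more. Beyond 500 bp there was no steady fall: the shares were 24.5%, 26.4%, 28%, 24.4% and 13.9% in the same order. Wide start peaks were also lowest at 10 or more CpG (16.5%), with 45.5% at 1 to 2 CpG and 46.8% at 3 to 5. CpG and GC content moved together: in bins under 60% GC, those with 3 or more CpG were covered to 27.3 to 29.5%, against 25.2 to 27.8% for those with fewer, whereas from 60% GC upward the shares were 15.8% with 3 or more CpG and 22% with fewer. Bins share peaks and are not independent. The part of amplification, of read alignment and of the caller in this pattern was not tested.

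**Figure D3:**
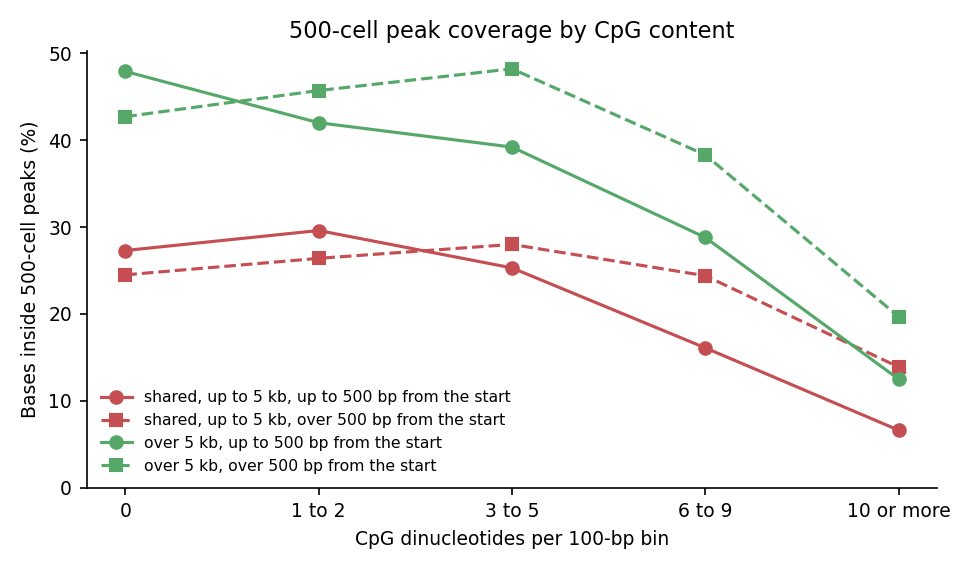
Share of bases inside 500-cell peaks (y axis, %) against the number of CpG dinucleotides in a 100-bp bin, for shared start peaks up to 5 kb (red) and start peaks over 5 kb (green), within 500 bp of the start (circles, solid) and beyond (squares, dashed). All 4 lines were lowest at 10 or more CpG, and the red solid line reached 6.63%.

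Bases marked as repeats in the reference made up 11.7% of the covered and 13.6% of the uncovered part of the members. Their share was lower inside 500-cell peaks in 521 of the 818 and higher in 296. The covered part was short (median 574 bp) and no minimum length was set, so these counts do not measure a difference in repeat content. Members were split by whether the start was island-like, taken here as a CpG observed over expected ratio above 0.6 and a GC content above 50% in the 1001 bp around it. The ratio compares the count of CpG with the count that the C and G content alone would give. The start lay in a 500-cell peak in 52 of 410 island-like members (12.7%, 9.8 to 16.3%) and in 90 of 386 others (23.3%, 19.4 to 27.8%). Widths were similar, at medians of 3328 and 3076 bp, and so was the coverage, at 21.9% and 20.3%.

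At the gene start, members had a median CpG observed over expected ratio of 0.608 (95% interval 0.588 to 0.625), unshared start peaks 0.565 (0.54 to 0.585), wide start peaks 0.661 (0.641 to 0.678) and all protein-coding genes 0.568. Island-like starts made up 51.5%, 39.9%, 63.7% and 45.7% of these sets. Members thus lay between the unshared and the wide sets. The highest ratios were those of Klf14 (1.11), of the mesoderm regulator Tcf15 (1.06) and of Sertad4 (1.04). The lowest were those of Lrg1 (0.0746), of Syndig1, which encodes a synaptic membrane protein (0.081), and of the LIM homeobox gene Lhx4 (0.0883). Members and unshared peaks were also set side by side within classes of width. From peaks of up to 1 kb to peaks of 4 to 5 kb, the share touched by a 500-cell peak was 12.6%, 36.6%, 64.4%, 80.6% and 92.7%. A wider peak offers more bases to be touched, and width and overlap both chose the sets, so these shares are a description. The share of all bases inside 500-cell peaks, members and unshared peaks together, went from 6.09% in the narrowest class through 9.75%, 15.3% and 18.3% to 24% in the widest. Within classes the ratio was 0.525 in members and 0.57 in unshared peaks up to 1 kb, 0.628 and 0.544 at 1 to 2 kb, 0.591 and 0.562 at 2 to 3 kb, 0.596 and 0.608 at 3 to 4 kb and 0.638 and 0.577 at 4 to 5 kb. The intervals of the pair overlapped in all 5 classes, but an overlap is no test, and a difference within a class was not tested. Island-like starts made up 42.3% of members and 41.1% of unshared peaks up to 1 kb, and 53.2% and 37.8% at 1 to 2 kb. The shares were 47.8% and 36.6% at 2 to 3 kb and 48% and 48.3% at 3 to 4 kb. At 4 to 5 kb they were 61% and 46.7%. The covered share of the members themselves had medians of 35.2% up to 1 kb and between 20.4% and 21.7% in the 4 wider classes.

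**Figure D4:**
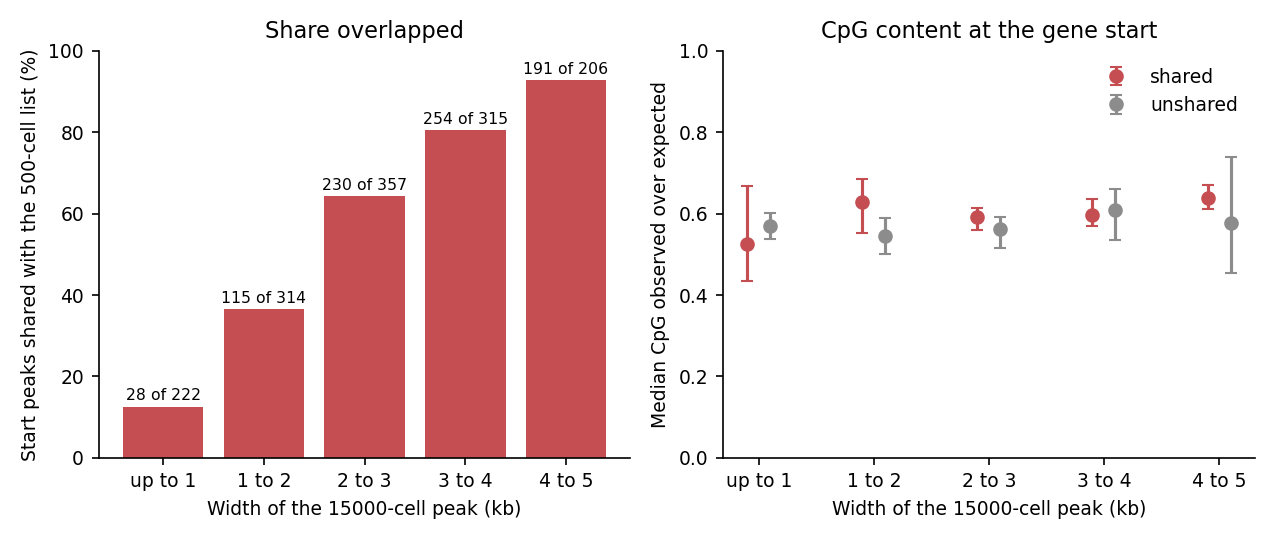
Left, share of start peaks up to 5 kb that a 500-cell peak touched (bars, %), by width of the 15000-cell peak in kb, with the counts above the bars. Right, median CpG observed over expected ratio in the 1001 bp around the gene start of shared (red) and unshared (gray) start peaks in the same classes, with the 95% interval of the median. The bars rise from 12.6% to 92.7%, and the red and gray intervals overlap in every class.

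Short promoter motifs were counted from 250 bp before to 50 bp after the start. Only starts of protein-coding genes were used: 757 of members, 539 of unshared and 348 of wide start peaks. TATAAA on the gene's strand, between 40 and 20 bp upstream, was present at 2.25% of member starts, 2.6% of unshared, 2.01% of wide and 2.29% of all protein-coding starts. GGGCGG on either strand was present at 53%, 48.2%, 56.3% and 43.7%, and CCAAT on either strand at 32.8%, 36.2%, 37.1% and 38.6%. GGGCGG holds a CpG and followed the order of the CpG ratio in the first 3 sets.

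Of 20807 autosomal protein-coding genes, 779 (3.74%) had a shared start peak, 559 (2.69%) an unshared one and 368 (1.77%) a wide one. These shares are the background for the gene lists, which were read as descriptions. Genes that lay wholly inside a peak carry another category and are in none of the 3 sets. Developmental transcription factors had 36 of 277 genes with a shared start peak (13%, 95% interval 9.54 to 17.5%), 9 with an unshared and 100 with a wide one, and another 59 lay wholly inside a peak. With a width limit of 4000 bp the share with a shared start peak was 7.94%. Neuronal genes had 58 of 237 (24.5%), against 37 and 22. Signaling genes had 32 of 142 (22.5%), against 7 and 21, and adhesion and matrix genes 19 of 78 (24.4%), against 9 and 9. The wide share was 36.1% for the transcription factors, 9.28% for neuronal, 14.8% for signaling and 11.5% for adhesion and matrix genes. Shared start peaks were also the more frequent kind over all genes. Of 1706 protein-coding genes with any of the 3 kinds, 779 (45.7%) had a shared one. Counted the same way, the share was 49.6% for neuronal, 53.3% for signaling and 51.4% for adhesion and matrix genes. It was 24.8% for the transcription factors. The differences between the lists were not tested. None of the 23 housekeeping genes had a start peak of any of the 3 kinds. A count of 0 of 23 allows a share of up to 13% by the limit of 3 counts, and the 95% Wilson interval reaches 14.3%.

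**Figure D5:**
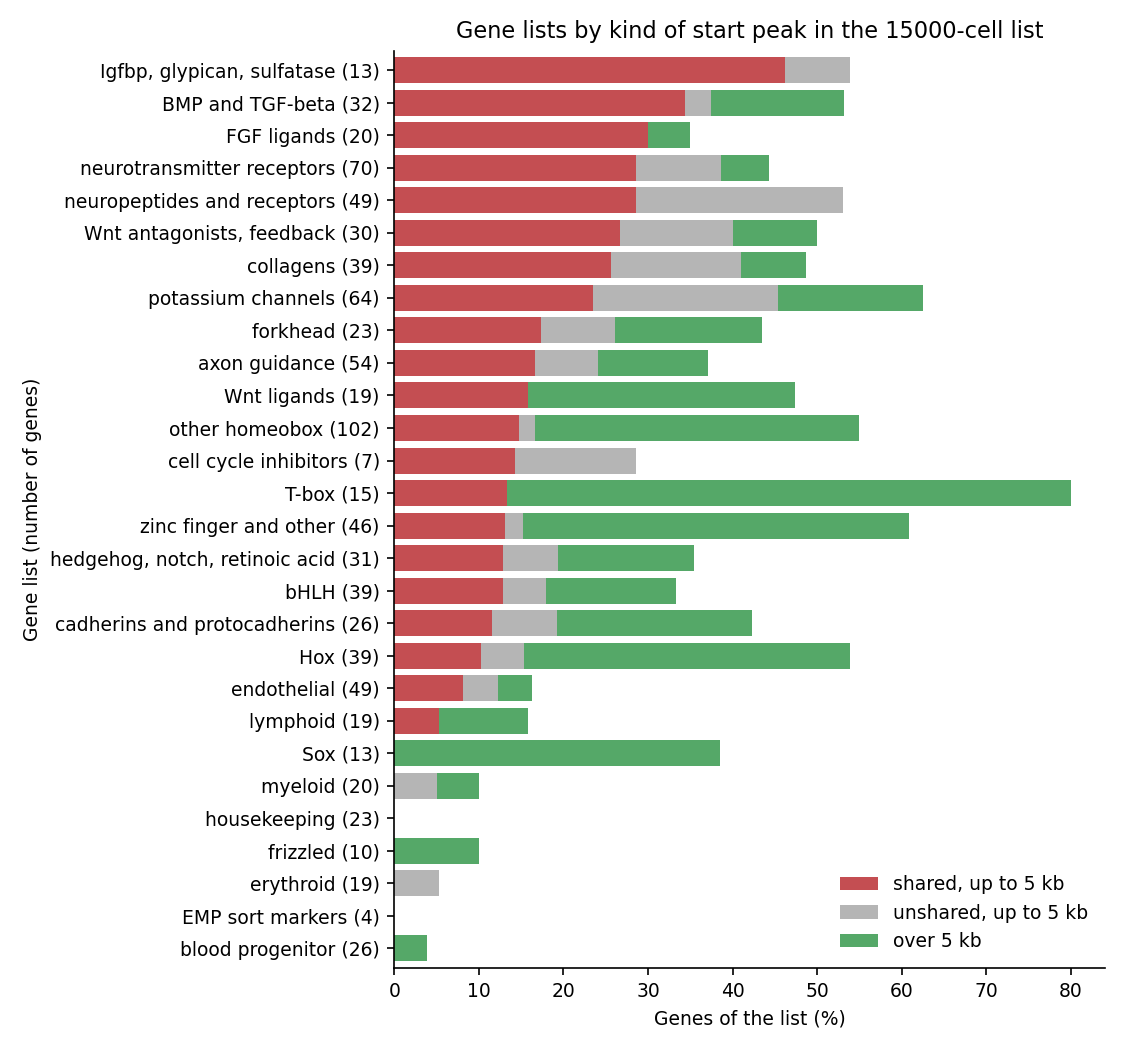
Share of the genes of each list (x axis, %) whose start had a shared start peak up to 5 kb (red), an unshared one up to 5 kb (gray) or a start peak over 5 kb (green) in the 15000-cell list, with the number of genes in parentheses. Red bars are longest for Igfbp, glypican and sulfatase genes and for BMP and TGF-beta genes, green bars for T-box genes, and housekeeping genes and the EMP sort markers have none.

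Among transcription factors, 15 of 102 homeobox genes outside the Hox clusters had a shared start peak and 39 a wide one, and 25 lay wholly inside a peak. The members included Pax6 (4919 bp), the motor neuron regulator Isl2 (4894 bp) and the pancreas and motor neuron regulator Nkx6-1 (4528 bp). Coverage by 500-cell peaks was 65.4% at Pax6, 40.8% at Isl2 and 67.5% at Nkx6-1. Of 39 Hox genes, which pattern the body axis, 4 had one: Hoxd9 (4415 bp, 67.8% covered), Hoxd12 (2977 bp, 54.7%), Hoxb6 (2707 bp, 39.2%) and Hoxb4 (1584 bp, 38.2%). Another 15 Hox genes had a wide start peak and 9 lay wholly inside a peak. Tbx2 (4968 bp) and Tbx3 (785 bp), regulators of limb and heart, were the members among 15 T-box genes, of which 10 had a wide peak. The basic helix-loop-helix list gave 5 members of 39: the neuronal regulators Bhlhe22 (4986 bp, 62.5% covered) and Neurod2 (4651 bp, 61.4%), and the mesoderm regulators Tcf21 (3365 bp, 41.6%), Tcf15 (3217 bp, 17.2%) and Twist1 (2947 bp, 21%). The forkhead list gave 4 of 23: Foxd1 (4743 bp), Foxq1 (4390 bp), Foxi2 (3273 bp) and Foxd3 (1333 bp), covered to between 24.9% and 31%. Among POU, PRDM and other factors, 6 of 46 were members and 21 had a wide peak. The sensory neuron regulator Pou4f1 (4696 bp, 66.4%) was the widest, ahead of Pou3f1 (4428 bp, 33%), Prdm14, a pluripotency factor (4190 bp, 18.1%), and Prdm8 (2763 bp, 32.6%). Of 13 Sox genes 0 were members, which allows a share of up to 23.1% by the limit of 3 counts, while 5 had a wide peak and 3 lay wholly inside a peak. The 36 members at transcription factor genes were covered to a median of 40.1% (95% interval 31 to 43.7%), against 21.1% over all members and 20% (15 to 23.1%) at the 58 neuronal members. Their median width was 3245 bp (2763 to 4390 bp), against 3512 bp (3096 to 4043 bp) for the neuronal members and 3147 bp for all members. The part of width in the coverage was not tested.

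Neuronal members came from 4 lists. Of 49 genes of neuropeptides and their receptors, 14 had a shared start peak, 12 an unshared and 0 a wide one. The widest were at Tac1, the gene of substance P (4735 bp, 10.9% covered), Tacr1, its receptor (4678 bp, 15%), the somatostatin receptor gene Sstr5 (4538 bp, 31.1%) and Crhr1, the receptor of corticotropin-releasing hormone (4233 bp, 61.8%). Neurotransmitter receptors had 20 of 70, led in width by the dopamine receptor gene Drd5 (4833 bp) and the glutamate receptor genes Grin2d (4775 bp) and Grik3 (4575 bp), and by the nicotinic receptor gene Chrna3 (4162 bp). Potassium channels had 15 of 64, with 14 unshared and 11 wide. Their members included the leak channel gene Kcnk4 (4698 bp, 49.4% covered) and Kcnq1, a channel gene of heart and inner ear (4437 bp, 35.6%). Axon guidance genes had 9 of 54, among them the secreted repellent Slit3 (4623 bp), Sema6d (4518 bp), the ephrin receptor gene Epha2 (4219 bp) and the netrin receptor gene Unc5c (3923 bp).

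Among signaling genes, ligands and their secreted inhibitors both appeared. In the BMP and TGF-beta list 11 of 32 genes had a shared start peak, 1 an unshared and 5 a wide one. The widest were at Grem1, a BMP antagonist (4943 bp, 8.56% covered), Fstl4 (4851 bp, 6.31%), Lefty1, an antagonist of Nodal (4721 bp, 25.3%), and Inhba, which encodes the activin A subunit (4396 bp, 8.35%). Nodal itself had a member of 3213 bp, 28.5% covered by 3 peaks. FGF ligands had 6 of 20, with Fgf9 (4714 bp, 40.8%), Fgf15 (4189 bp, 27.5%), Fgf5 (3946 bp, 45.8%) and Fgf3 (3238 bp, 4.23%) as the widest. In the hedgehog, Notch and retinoic acid list, 4 of 31 genes had a shared start peak, 2 an unshared and 5 a wide one. The members were at Ptch1, the hedgehog receptor (3457 bp), its co-receptor Boc (2549 bp), Dll4 and Aldh1a3, an enzyme of retinoic acid synthesis (3805 bp). Wide peaks lay at the hedgehog ligand genes Shh, Ihh and Dhh and at Dll1 and Aldh1a2.

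Wnt signaling genes are of interest to the study. Of 19 Wnt ligand genes, 3 had a shared start peak, 0 an unshared and 6 a wide one. Wnt2b had a peak of 4421 bp with 2 peaks of the 500-cell list (26.4%), Wnt2 one of 4330 bp with 1 peak of 137 bp (3.16%), and Wnt10a one of 4301 bp with 2 peaks (76%). At Wnt10a the larger of them ran from 399 to 2899 bp downstream of the start. The 3 ligand genes thus differed by a wide margin in the part covered, at nearly equal widths. Of 30 antagonist and feedback genes, 8 had a shared start peak. Rspo2, which encodes a secreted activator of Wnt receptors, had 4739 bp (6.98% covered), Shisa3 4002 bp (20.7%), Dkk1, a secreted inhibitor of the Wnt co-receptor, 3970 bp (24.4%) and the R-spondin receptor gene Lgr6 3074 bp (8.91%). Dkk1 was the 1 of these 4 that had its start inside a 500-cell peak. The other members were Frzb, Rspo1, Dkk3 and Draxin, between 1450 and 2957 bp. Of 10 Frizzled receptor genes 0 were members, which allows a share of up to 30% by the limit of 3 counts, and Fzd2 had a wide peak.

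Among 12 genes picked out by the study for chromatin accessibility or Wnt secretion, Shisa3 and Sulf2 were members. At Shisa3 the peak (chr5:67604311-67608312) ran from -3571 to 430 bp of the start, and its 500-cell peaks of 682 and 147 bp both lay upstream. At Sulf2 the peak (chr2:166155123-166158051) held 1 peak of 350 bp, also upstream. Col5a1 had an unshared start peak of 4571 bp. Hoxb13 lay wholly inside a 15000-cell peak. Igfbp2, Gnai1, Wnt4, Wnt5b and the X-linked Porcn had 15000-cell peaks paired with them inside the gene or upstream of it but none across the start, and Runx1, Gfi1b and Itga2b were paired with none. The study chose these genes with results of its own in hand, so they are no independent set.

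EMPs form between the endothelial and blood lineages, and genes of both were examined. Of 49 endothelial genes, 4 had a shared start peak (8.16%, 3.22 to 19.2%), an interval that holds the background of 3.74%. Flt1, a receptor of vascular endothelial growth factor, had 4720 bp with 3 peaks of the 500-cell list (12.1%). Unc5b had 3175 bp with 1 peak (5.73%), Erg 2314 bp with 1 peak that crossed the start (7.35%), and Dll4, a Notch ligand of arteries, 643 bp with 1 peak (34.1%). Flt4 and Aplnr had unshared peaks, and Sox7 and Nr2f2 wide ones. With at least 10% coverage required, Flt1 and Dll4 were left (4.08%, 1.13 to 13.7%), and a width limit of 4000 bp gave 6.12% (2.1 to 16.5%). With protein-coding starts from GENCODE, or with a limit of 6000 bp, the share was 10.2% (4.44 to 21.8%), an interval that does not hold 3.74%. Whether the endothelial share lay above the background thus depended on the setting. Of 84 blood genes, 1 had a shared start peak (1.19%, 0.21 to 6.44%, which also holds 3.74%). It was Bcl11b, a regulator of T cells, with 472 bp and 202 bp covered. The genes of the sort markers, Kit, Itga2b, Fcgr3 and Fcgr2b, had no peak of either list within 3 kb of the start, nor had Runx1, Gfi1b, Myb, Spi1, Tal1, Gata1 and Ptprc. Gfi1, a repressor of the endothelial program in emerging blood cells, had 2 peaks of each list within 3 kb and a wide start peak. Among vessel genes Cdh5, Pecam1 and Tek had none either, while Kdr and Sox18 had peaks of the 15000-cell list and Sox17 of both lists within 3 kb. Peak lists hold no expression values, so the identity of the sorted cells could not be checked from them.

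Among adhesion and matrix genes, the collagens had 10 of 39 genes under a shared start peak, 6 under an unshared and 3 under a wide one. The widest were at Col27a1 (4184 bp, 12.4% covered), Col12a1 (4173 bp, 30.9%), Col15a1 (3762 bp, 42.6%) and Col9a3 (2825 bp, 5.06%). Col4a3 and Col4a4, head-to-head genes of basement membrane collagen, shared 1 peak of 2076 bp. Cadherins and protocadherins, which join cells, had 3 of 26: Cdh6 (4997 bp, 13.8%), Cdh22 (3619 bp, 49.9%) and Pcdh8 (1248 bp, 22.2%). The group of insulin-like growth factor binding proteins, glypicans and sulfatases had 6 of 13: Sulf1 (3433 bp), Gpc1 (3348 bp), Sulf2 (2929 bp), Gpc5 (2624 bp), Igfbp5 (1766 bp) and Igfbp3 (1455 bp). Of the cell cycle inhibitors, Cdkn2b had a shared start peak of 713 bp and its neighbor Cdkn2a an unshared one. Class I histocompatibility genes of chromosome 17, which present antigens on the cell surface, gave 7 members. Of 41 protein-coding genes with names beginning H2, 6 had a member (14.6%, against 3.74% over all protein-coding genes; H2-L is not in GENCODE), 1 an unshared and 2 a wide start peak. The members were at H2-D1 (580 bp, 76.9% covered), H2-L (1475 bp, 47.6%), H2-Q6 (1388 bp, 34.8%), H2-Q7 (1703 bp, 54.6%), H2-Q10 (3978 bp, 44.5%), H2-T3 (3994 bp, 41.7%) and H2-M5 (1263 bp, 34.7%). All 7 lay above the median coverage of 21.1%. They were named after their values were seen, and many are near-identical copies, so the assignment of reads among them is uncertain. Members lay on all 19 autosomes, from 12 on chromosome 16 to 67 on chromosome 4.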

How the data were processed

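The authors aligned CUT&RUN reads to mm10 with Bowtie2 2.2.1 and called broad peaks with MACS2 2.1.2 for each H3K27me3 library against IgG background. The p-value thresholds are those of the methods. A listing of the commands pairs each threshold with the opposite library, and the lists were used as labelled. ChIPpeakAnno supplied genes and location categories. The deposited values used were peak positions in bp, gene pairings and categories, with no score or depth.

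The 15000-cell peaks were intersected with the 500-cell peaks at 1 bp or more. Gene starts came from GENCODE vM21 and sequence from RefSeq's GRCm38.p6. Where a peak had several paired genes, a protein-coding gene with its start inside was taken first. Composition was computed in 1001-bp windows and in 100-bp bins. Shares carry 95% Wilson intervals and medians order-statistic intervals, both for counting error only. Each group had 1 library, so no test was made. Code was tested on simulated intervals and sequences.

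Members and gene lists (934 symbols, all matched) were chosen with earlier results of these data known. Named genes were all genes of a list with a member, or the 4 widest, and the members extreme in coverage, number of 500-cell peaks, width, overlap or CpG ratio. Sequence windows came from these, and some of the genes and windows so named are not reported here. The labels name another library kit than the methods. Python 3.11.15, pandas 2.3.3, scipy 1.17.1 and pysam 0.24.0 were used.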

Additional observations from a re-analysis of the deposited data

Results flagged for a closer look

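The choice of members was limited to chromosomes 1 to 19. On chromosomes X and Y, 7 further start peaks up to 5 kb were touched by a 500-cell peak, all on X, and 10 were not. The 7 lay at Gpr101 (2745 bp), Aff2 (1667 bp), Mamld1 (3392 bp), Gpr50 (4387 bp), Cdx4 (3872 bp), Irs4 (283 bp) and Chrdl1 (1275 bp). They drew attention as a signal in data outside the comparisons.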

How the results depend on the processing

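The 10 results were recomputed under the alternatives, which gave 75 values. Of these, 64 kept to the reported value within its 95% interval (for the number of members, within 1.5 times), and 11 moved by more. With at least 10% of a member covered by 500-cell peaks, 45.1% of narrow start peaks were shared in place of 57.9%, the start lay in a 500-cell peak in 21.9%, and the median coverage was 26.2%. Without 500-cell peaks of the smallest width (137 bp), 52.8% were shared. A width limit of 4000 bp gave 51.9% shared and a member at 7.94% of developmental transcription factor genes, and a limit of 6000 bp gave 61.1% shared. At 4000 bp the CpG ratios were 0.598 for members (95% interval 0.578 to 0.614) and 0.565 for unshared peaks (0.539 to 0.585), so their intervals overlapped. With 250 bp on each side of the start the CpG ratio of members was 0.636. With 1000 bp it was 0.552 for members and 0.502 for unshared peaks. Any annotated transcript start in place of the gene start gave 23.1%. No paired analysis was possible because each group had 1 library and no result came from a test. The files give no depth per peak, and depth and alignment rate were lower for 500 cells, so a start peak untouched by the 500-cell list was not shown to lack the mark in 500 cells.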
